A study of Aspergillus nidulans with 4 samples.

Results

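The 7 genes described here encode the osmotic stress mitogen-activated protein (MAP) kinase cascade of Aspergillus nidulans and the histidine-to-aspartate phosphorelay proteins that feed it. They were taken by identifier from the deposited table of 10930 rows, and all 7 had reads in every library and passed the filter on low counts in edgeR. RNA of a strain lacking the MAP kinase gene mpkA (strain AN1404) was set against that of the parental strain (AN1405). Each strain has 2 libraries. The submitters' question was which functions of MpkA had gone unnoticed, in cultures to which no stress was applied. Both strains were grown at 28 °C in rich medium of pH 3.3, for 12 hours as a seed culture and about 20 hours in the main flask, until late exponential phase. The labels give no further genotype of either strain. They mention biological and technical replicates without assigning libraries to either kind, so the p-values measure a spread that may be technical only.

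In filamentous fungi, hybrid histidine kinases pass phosphate through a histidine-containing phosphotransfer protein to response regulators, and one of these regulators controls a 3-tier MAP kinase cascade. High osmolarity, oxidants and some fungicides signal through this cascade, and its terminal kinase, called Hog1 in Saccharomyces cerevisiae and SakA or HogA in A. nidulans, moves to the nucleus and acts on stress gene transcription. MpkA is the MAP kinase of a different cascade, that of cell wall integrity.

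The libraries held 31674270 and 31609185 reads on genes in the deletion strain and 34871842 and 33027324 in the parental strain. The authors deposited strain means of normalized reads, that is, reads divided by a library's size factor, and reads per library were recovered from these means. Libraries a and b of a strain carry no replicate number. The deleted gene, mpkA (AN5666), had 6 and 3 reads in deletion libraries, against 6993 and 6437 in parental libraries. Libraries of 1 strain lay close together for the 7 genes, with a largest log2 gap of 0.07 between the deletion libraries and 0.10 between the parental libraries.

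Transcripts of the lower part of the cascade, pbsB and sakA, were higher in the deletion strain by about the same factor, those of the histidine kinase gene nikA were lower, and the other 4 genes differed little. In the authors' deposited table, called at a q-value under 0.05, 3 of the 7 genes were higher in the deletion strain, where 36.3% of all 10505 genes tested were, and 1 was lower, where 35.9% of all genes were. These counts lie near the background, so the number called says nothing particular about the 7 genes. Their median log2 difference was 0.11, beside -0.01 over all genes tested. At least 1.5-fold higher were 2 of the 7, pbsB and sakA, where 18.6% of all genes were in the authors' deposited table. With edgeR and library totals as the scaling, that count was 0 of the 7, where 14.2% of all genes were. At a coefficient of variation between cultures assumed at 0.2 it was 1. That setting called 17.1% of all genes higher at any fold, and their share at 1.5-fold was not computed. The median absolute log2 difference was 0.17 for the 7 genes and 0.42 for the 4252 genes with at least 1000 normalized reads in both strains. Of the 7 genes, mpkC, with a parental mean of 974, was just under that limit.

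**Figure D1:**
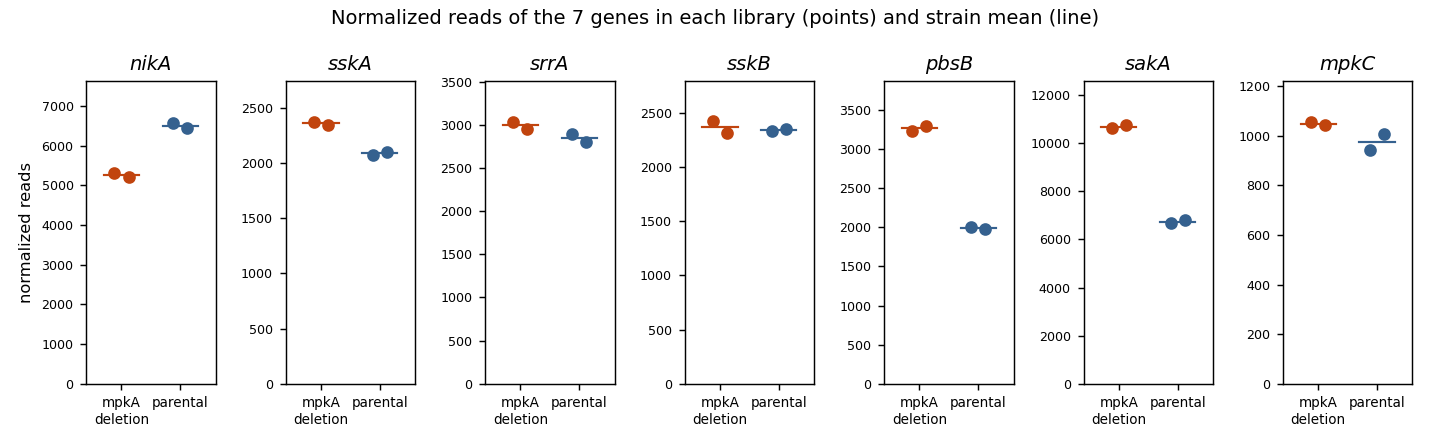
Normalized reads of each of the 7 genes in the 2 libraries of the mpkA deletion strain (left in each panel) and the 2 of the parental strain (right); points are libraries, lines are strain means, and each panel has its own axis from 0. The strains stand clearly apart for pbsB and sakA (higher in the deletion strain) and nikA (lower), and overlap for sskB.

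nikA (AN4479, positions 1913143 to 1918240 on the minus strand; the files give no chromosome) encodes a soluble hybrid histidine kinase through which phenylpyrrole and dicarboximide fungicides act. It had 5299 and 5212 normalized reads in deletion libraries and 6566 and 6444 in parental libraries. Both deletion libraries lay below both parental ones. In the authors' deposited table the deletion strain stood at 0.808 of the parental level (q = 1.76e-13), and edgeR (quasi-likelihood test on reads recovered per library, Benjamini-Hochberg adjustment) gave a log2 difference of -0.33 with a standard error (SE) of 0.03 (adjusted p = 2.72e-08). It was the only one of the 7 genes called lower in that table, and at an assumed coefficient of variation of 0.2 edgeR did not call it (adjusted p = 0.375).

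The 2 response regulator genes were close to their parental levels. sskA (AN7697, positions 2409047 to 2412030, minus strand) encodes the regulator that activates the cascade's first kinase. It had 2370 and 2347 normalized reads in deletion libraries, against 2074 and 2103 in parental libraries, without overlap. The difference was small, 1.13-fold in the authors' deposited table (q = 0.0021), with a log2 difference of 0.16 (SE 0.035) from edgeR (adjusted p = 0.000469). With library totals the direction turned and the call was lost (-0.04, adjusted p = 0.305).

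srrA (AN3688, positions 3369074 to 3371758, minus strand) encodes a response regulator that is itself a DNA-binding protein, the counterpart of Skn7 of S. cerevisiae. It had 3040 and 2949 normalized reads in deletion libraries and 2893 and 2798 in parental libraries. The groups did not overlap, but the nearest libraries of different strains lay no farther apart than libraries of 1 strain. The gene was not called in the authors' deposited table (1.05-fold, q = 0.185). With edgeR the log2 difference was 0.06 with an SE of 0.035 (adjusted p = 0.144).

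sskB (AN10153, positions 1280137 to 1284404, plus strand), the MAP kinase kinase kinase gene at the head of the cascade, had 2426 and 2315 normalized reads in deletion libraries and 2337 and 2349 in parental libraries. The parental values lay between the deletion values. It was not called in the authors' deposited table (1.01-fold, q = 0.818), and edgeR gave a log2 difference of 0.00 with an SE of 0.04 (adjusted p = 0.982).

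pbsB (AN0931, positions 2030939 to 2033846, minus strand) encodes the MAP kinase kinase that phosphorylates SakA. It had 3227 and 3299 normalized reads in deletion libraries, against 2008 and 1980 in parental libraries. The deletion libraries were far above the parental ones, and the gene was 1.64-fold higher in the authors' deposited table (q = 7.84e-42). edgeR gave a log2 difference of 0.69 (SE 0.03, adjusted p = 7.19e-12), the largest of the 7 genes. With the coefficient of variation between cultures assumed at 0.2, pbsB was still called by edgeR (adjusted p = 0.0412).

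sakA (AN1017, positions 1787246 to 1789396, minus strand) encodes the terminal MAP kinase. It had 10649 and 10741 normalized reads in deletion libraries and 6674 and 6812 in parental libraries. Here too the strains did not overlap, and the gene was 1.59-fold higher in the authors' deposited table (q = 3.2e-68). edgeR gave a log2 difference of 0.65 (SE 0.03, adjusted p = 1e-12), and at an assumed coefficient of variation of 0.2 the call was lost (adjusted p = 0.0569).

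mpkC (AN4668, positions 1363905 to 1366245, plus strand) encodes a further MAP kinase of the Hog1 type, the paralog of SakA. It had 1056 and 1042 normalized reads in deletion libraries and 941 and 1007 in parental libraries. The deletion libraries were slightly above. The lower of them (1042) exceeded the higher parental library (1007) by less than the parental libraries differed from each other. It was not called in the authors' deposited table (1.08-fold, q = 0.187), and edgeR gave a log2 difference of 0.09 with an SE of 0.05 (adjusted p = 0.116). How the authors counted reads that align to both paralogs is not given in the sources used here, so a split of such reads between sakA and mpkC is uncertain.

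Small differences depended on the scaling. With edgeR's TMM scaling, which assumes that most genes do not change, 42.5% of 9338 genes were called higher and 44.0% lower, and of the 7 genes the same 3 were higher and the same 1 lower. Scaling by library totals moved the median of all genes from -0.02 to -0.21 on the log2 scale and called 32.8% of genes higher and 53.5% lower. Under it pbsB and sakA were higher (log2 differences of 0.50 and 0.45), nikA, srrA and sskB were called lower (-0.52, -0.14 and -0.20), and sskA and mpkC were not called (-0.04 and -0.11). The order of the 7 differences was that under TMM, which was fixed in advance, since a change of scaling shifts all genes almost equally. At an assumed coefficient of variation of 0.2, edgeR called 17.1% of genes higher and 26.7% lower, and of the 7 genes only pbsB. With 2 libraries against 2, an exact permutation test of a single gene cannot go below p = 0.333.

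**Figure D2:**
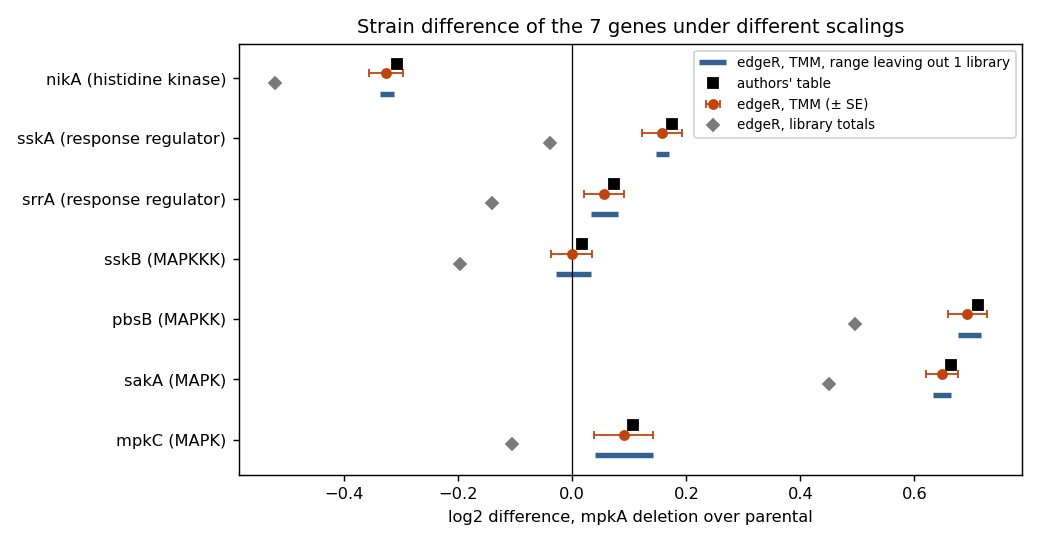
Log2 difference of each of the 7 genes, mpkA deletion over parental, from the authors' strain means (squares), edgeR with TMM scaling (circles, ± SE), edgeR with library totals (diamonds), and the range when 1 library is left out (bars). pbsB and sakA are right of 0 and nikA left of 0 under all of these, while sskA, srrA and mpkC change sides with library totals and sskB lies at 0 unless library totals are used.

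Ratios of reads between genes within a library do not depend on scaling. Each library held about the same number of sakA reads per pbsB read, 3.30 and 3.26 in the deletion strain and 3.32 and 3.44 in the parental strain. sakA gained on its paralog, with 10.1 and 10.3 sakA reads per mpkC read in deletion libraries and 7.09 and 6.76 in parental libraries, a 1.47-fold higher ratio. Between the upper tiers, pbsB reads per sskB read were 1.33 and 1.43 in deletion libraries, against 0.859 and 0.843 in parental libraries, a 1.62-fold higher ratio. None of these ratios overlapped between strains, and that of sakA to pbsB differed least, at 0.969 of the parental ratio.

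**Figure D3:**
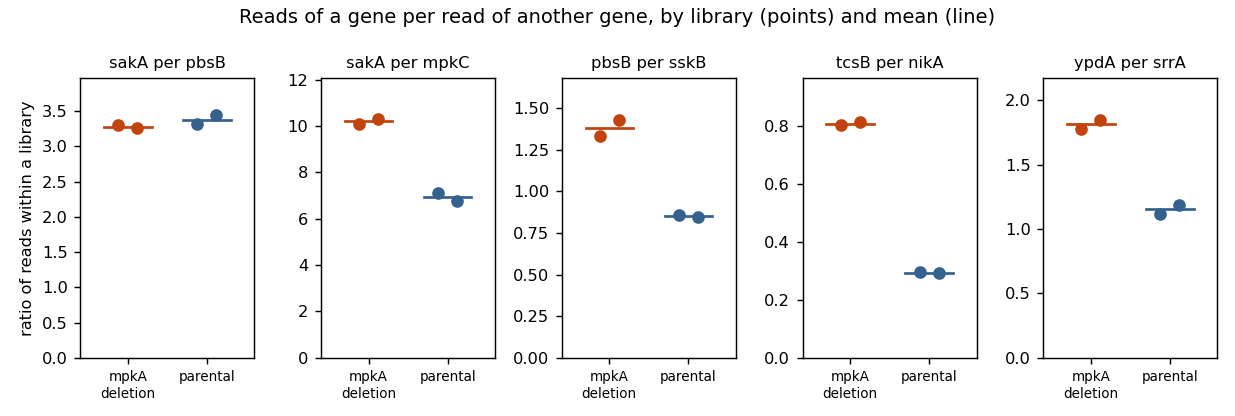
Reads of 1 gene per read of another within the same library, in the 2 mpkA deletion libraries (left in each panel) and the 2 parental libraries (right); points are libraries and lines are means. The ratio of sakA to pbsB lies between 3.26 and 3.44 in all 4 libraries, whereas the other 4 ratios are higher in both deletion libraries.

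Levels were compared between genes as reads per kilobase of gene span, introns included, and per 1000000 reads on genes. sakA had by far the highest level, 141 ± 0.496 in the deletion strain and 103 ± 1.22 in the parental strain (SD, n = 2 each), where the median gene had 11 and 13.9. The paralog mpkC had the lowest of the 7 on this scale, 12.7 ± 0.153 in the deletion strain and 13.7 ± 0.624 in the parental strain. In the deletion strain the order below sakA was pbsB (31.8), srrA (31.6), nikA (29.2), sskA (22.4) and sskB (15.7), of which only the neighbours pbsB and srrA overlapped between libraries. In the parental strain it was nikA (42.0), srrA (34.9), sskA (23.0), pbsB (22.5) and sskB (18.1), with no overlap between neighbours. pbsB thus stood 2nd in the deletion strain and 5th in the parental strain. With gene lengths of RefSeq in place of the files' spans, chosen after seeing the data, pbsB stood 3rd and 4th, sakA stayed first, and sskB took the last place from mpkC in both strains.

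**Figure D4:**
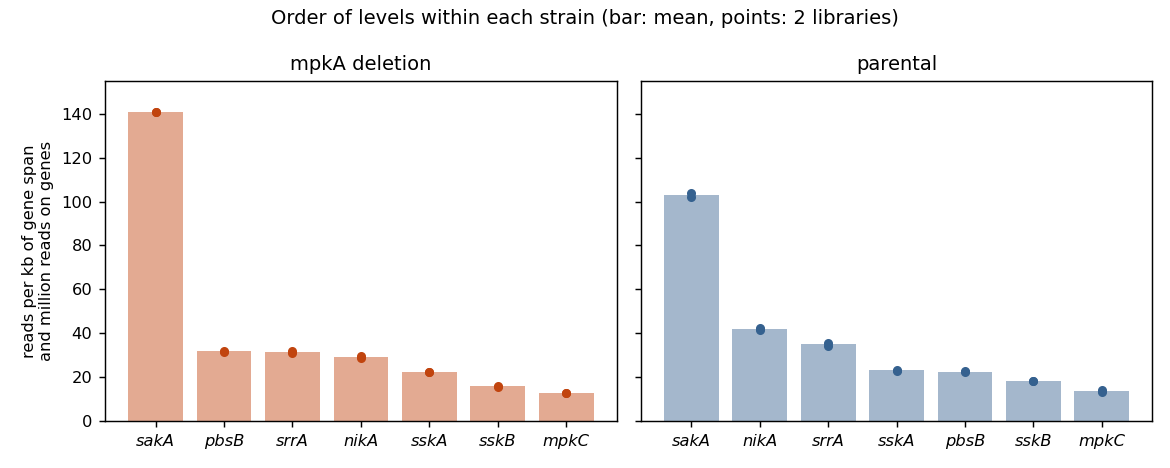
Reads per kilobase of gene span and per 1000000 reads on genes, for the 7 genes ordered by level in the mpkA deletion strain (left) and the parental strain (right); bars are means and points the 2 libraries. sakA is highest and mpkC lowest in both panels. In the deletion strain pbsB is 2nd, overlapping srrA, and nikA 4th, whereas in the parental strain nikA is 2nd and pbsB 5th.

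Of 4 further genes listed as inputs of the cascade, 2 were called higher, 1 lower and 1 not called in the authors' deposited table, where 36.3% of all genes were higher and 35.9% lower. The 2 higher ones were tcsB and ypdA, both of the phosphorelay, to which nikA, called lower, belongs too. tcsB (AN1800), the transmembrane histidine kinase gene corresponding to SLN1 of S. cerevisiae, had 4249 and 4231 normalized reads in deletion libraries, against 1937 and 1891 in parental libraries. That was a 2.22-fold difference in the authors' deposited table (q = 1.25e-115), and edgeR gave a log2 difference of 1.13 (SE 0.03). ypdA (AN2005), for the phosphotransfer protein between histidine kinases and regulators, was 1.65-fold higher in the authors' deposited table (q = 1.29e-58), with 5408 and 5450 normalized reads in deletion libraries and 3236 and 3339 in parental libraries.

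The proportions between some phosphorelay genes differed between the strains. Each pair given here sets a gene called at least 1.5-fold higher against one that was not. tcsB reads per nikA read were 0.802 and 0.812 in deletion libraries, against 0.295 and 0.293 in parental libraries, a 2.74-fold higher ratio. ypdA reads per srrA read were 1.78 and 1.85 in deletion libraries and 1.12 and 1.19 in parental libraries. Per sskA read, ypdA reads were 2.28 and 2.32 in deletion libraries and 1.56 and 1.59 in parental libraries.

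Of the other listed inputs, shoA (AN7698) is annotated as a putative transmembrane osmosensor, equivalent to Sho1 of S. cerevisiae. It was not called in the authors' deposited table (0.993 of the parental level, q = 0.858). The mucin gene msbA (AN7041) was at 0.892 of the parental level (q = 1.90e-06) in the authors' deposited table. Whether shoA and msbA feed the cascade in A. nidulans was not tested.

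The annotation text placed 6 further genes among phosphorelay and histidine kinase genes, tcsB and ypdA included. Of these, 4 were called higher, 1 lower and 1 not called in the authors' deposited table (all genes: 36.3% higher, 35.9% lower), with a median log2 difference of 0.46. The largest difference was that of AN4113, annotated as a histidine kinase, which had 4276 and 4260 normalized reads in deletion libraries and 1410 and 1417 in parental libraries. It was 3.02-fold higher in the authors' deposited table (q = 2.17e-203). AN5296, a protein with histidine kinase and response regulator domains, was the gene called lower, at 0.76 of the parental level (q = 4.14e-16 in the authors' deposited table), and is named here after its value was seen. Under library totals 3 of the 6 were called higher and 2 lower, where 32.8% of all genes were higher and 53.5% lower.

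A list of 10 stress response genes, called downstream genes here, was also read, and whether each of them answers to SakA was not tested. The list was chosen with earlier results of these data known, so its counts and median only describe it. Of these 10, 7 were called higher, 2 lower and 1 not called in the authors' deposited table, with a median log2 difference of 0.52. Over all genes tested there, 36.3% were higher and 35.9% lower, and the median was -0.01. Under library totals edgeR called 7 of the 10 higher and 3 lower, where it called 32.8% of all genes higher and 53.5% lower. The 3 listed genes for formation of glycerol, the osmolyte that fungi accumulate under osmotic stress, were all higher. The glycerol dehydrogenase gene gldB (AN5563) had 17049 and 17468 normalized reads in deletion libraries, against 6785 and 6755 in parental libraries, a 2.55-fold difference in the authors' deposited table (q = 2.48e-298). The glycerol 3-phosphate dehydrogenase gene gfdA (AN0351) was 1.64-fold higher (q = 2.45e-60) and its paralog gfdB (AN6792) 4.06-fold higher (q = 2.17e-19) in the authors' deposited table. gfdB rested on few reads, with 180.1 and 183.4 normalized reads in deletion libraries and 43.5 and 46.1 in parental libraries, and how reads common to both paralogs were counted is not known here.

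Of the 3 genes for peroxide removal on this list, 2 were higher in the authors' deposited table, where 36.3% of all genes were. The hyphal catalase gene catB (AN9339) had 26470 and 26261 normalized reads in deletion libraries and 7315 and 7535 in parental libraries, a 3.55-fold difference in the authors' deposited table (q listed as 0). The thioredoxin-dependent peroxidase gene prxA (AN8692) was 2.26-fold higher (q = 1.69e-161) in the authors' deposited table. The conidial catalase gene catA (AN8637) was near the floor, with 41.1 and 39.1 normalized reads in deletion libraries and 62.7 and 52.6 in parental libraries, and was not called in the authors' deposited table (q = 0.137). It was called lower by edgeR, at a log2 difference of -0.54 (SE 0.21, adjusted p = 0.023).

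Of the regulators, the bZIP factor gene napA (AN7513), which responds to oxidants, was at 0.51 of the parental level in the authors' deposited table (q = 2.04e-145). It had 6633 and 6322 normalized reads in deletion libraries, against 12690 and 12706 in parental libraries. atfA (AN2911), for the bZIP factor that works with SakA, was at 0.922 of the parental level (q = 0.0133), and srkA (AN4483), for a kinase activated by SakA, was 1.22-fold higher (q = 3.65e-14) in the authors' deposited table. The trehalose 6-phosphate synthase gene tpsA (AN5523) was 1.25-fold higher (q = 1.17e-15) in the authors' deposited table.

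catA is expressed in conidia, and 7 markers of conidial cells were therefore read as well. Their summed level was 10.1 and 9.69 reads per kilobase and 1000000 reads in deletion libraries, against 26.2 and 23.9 in parental libraries. Most of that gap came from 1 marker, abaA, a regulator of conidiophore development, with 1.40 and 1.38 in deletion libraries and 14.8 and 14.3 in parental libraries on this scale. Without abaA, a sum taken after the values were seen, the other 6 markers came to 8.72 and 8.31 in deletion libraries, against 11.4 and 9.57 in parental libraries. The conidial laccase gene yA went the other way, with 5.58 and 5.29 in deletion libraries and 1.56 and 1.40 in parental libraries. Of the 7 markers, 4 were called lower, 1 (yA) higher and 2 (wetA and dewA) were not called in the authors' deposited table, where 35.9% of all genes were lower and 36.3% higher. None of the 7 was at 0 in any library. Their part in the results above was not tested. In such bulk RNA, fewer cells of a type and less RNA per cell cannot be told apart.

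**Figure D5:**
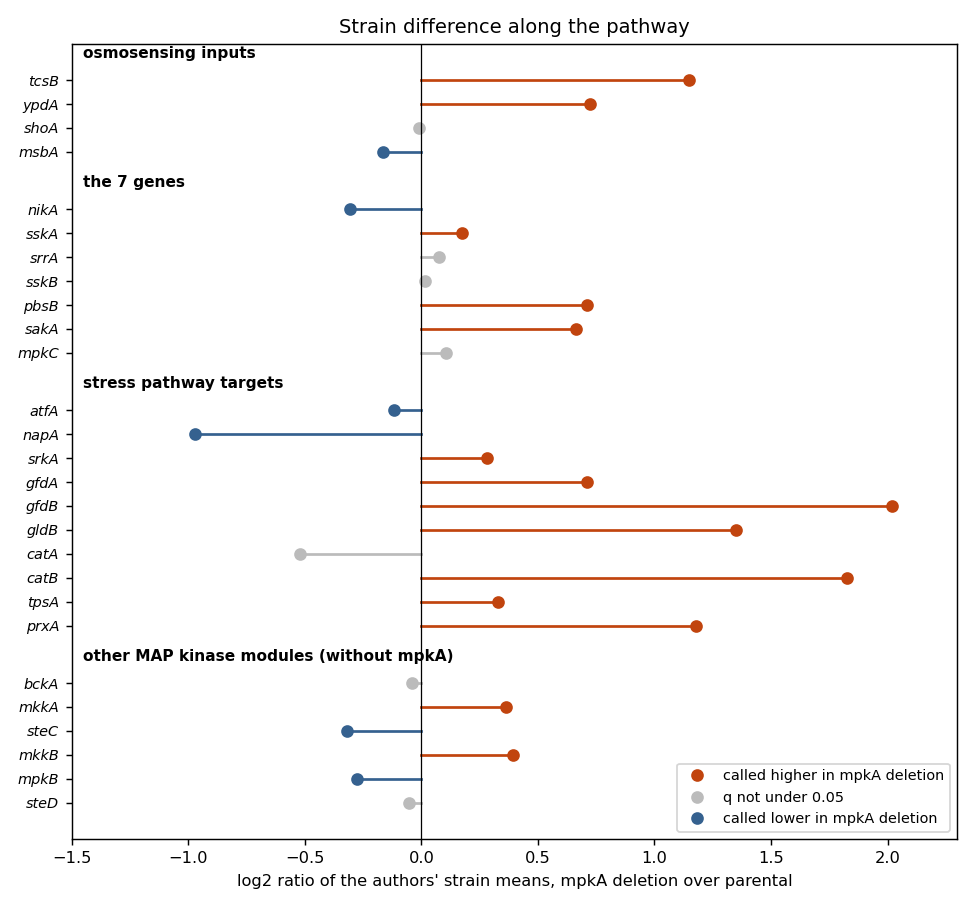
Log2 ratio of the authors' strain means, mpkA deletion over parental, for the input genes, the 7 genes, the downstream genes and the genes of the other MAP kinase cascades without mpkA; red points were called higher, blue points lower and grey points not called at a q-value of 0.05. tcsB, ypdA, pbsB, sakA and most downstream genes lie right of 0, with napA the farthest to the left.

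The genes of the other cascades are given for comparison. Without the deleted mpkA, the 6 genes of the cell wall integrity and pheromone-type modules ranged from 0.801 of the parental level for steC to 1.31-fold higher for mkkB in the authors' deposited table. With mpkA counted, 2 of these 7 genes were higher, 3 lower (mpkA, steC and mpkB) and 2 without a call in the authors' deposited table, where all genes gave 36.3% higher and 35.9% lower. edgeR with library totals called 2 of them higher and 5 lower, mpkA again among the lower, beside 32.8% and 53.5% of all genes. The lower call of mpkA was fixed by its deletion. The MAP kinase gene mpkB (AN3719) had 5043 and 4661 normalized reads in deletion libraries and 5803 and 5943 in parental libraries, at 0.826 of the parental level in the authors' deposited table (q = 1.18e-06). The MAP kinase kinase gene mkkA (AN4189), upstream of mpkA, was 1.29-fold higher in the authors' deposited table (q = 3.42e-10). A test of the difference between cascades was not made.

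Among the input, downstream and annotated genes, those with a log2 ratio of strain means nearest to that of pbsB (0.71) were gfdA (0.71), ypdA (0.72) and AN4029 (0.69), of which AN4029, a protein more abundant during osmoadaptation, was not called in the authors' deposited table (q = 0.144). The likeness is the gap in the log2 ratio over the 2 strains.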

How the data were processed

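Per the labels' protocols, mycelial RNA was extracted with Trizol, and the kit was Illumina TruSeq RNA v2, whose reads carry no strand information. Per the submitters' processing notes, Bowtie2, HTSeq and DESeq were the tools. Their versions, the counting options and the build were not given in the sources used here. Signal values in the 3 deposited tables are the authors' means over 2 libraries of reads divided by size factors. The authors' fold, or ratio, has the deletion strain as denominator and was inverted here. The p-values and q-values are the authors', per the file headers. Their comparison is the main result, since the files hold means. Of the read columns, 2 match no label and were not used.

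A strain's mean appears in 2 tables, scaled by different size factors, and both equations were solved for whole reads of 2 libraries. This succeeded within 0.25 reads for 100% of 10930 genes, and for 100% in simulated data. These reads were tested with edgeR 4.0.16 (R 4.3.3; TMM, filterByExpr, quasi-likelihood) and DESeq2 1.42.0, under the alternatives given in the closing section. In a simulation of deletion against parental libraries over 9338 genes, of which 200 were changed, edgeR recovered 84% of genes changed 1.5-fold. In the data 42.5% of genes were called higher and 44.0% lower with TMM, and recovery with so many changed genes was not tested. The SE of a log2 difference is the difference divided by the square root of F. RefSeq (assembly ASM1142v1) gave names, neighbours and lengths for 9974 identifiers, and lists AN4479, AN0931 and AN3688 as tcsC, pbs2 and skn7.

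The members and lists were chosen with earlier results of these data known. Named were all 7 genes, input and downstream genes differing at least 1.5-fold, and the 3 largest differences of each annotated list among called genes with at least 50 normalized reads in 1 strain. Other genes were named after their values were seen.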

Additional observations from a re-analysis of the deposited data

How the results depend on the processing

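Directions and calls of pbsB, sakA, nikA and sskA held under edgeR with TMM, DESeq2, DESeq2 size factors in edgeR and no filter. Leaving out 1 library gave edgeR log2 differences of 0.68 to 0.72 for pbsB, 0.63 to 0.66 for sakA, -0.34 to -0.31 for nikA, 0.15 to 0.17 for sskA, 0.03 to 0.08 for srrA, 0.04 to 0.14 for mpkC and -0.028 to 0.033 for sskB, whose direction was thus not set; the lone library left in a strain was assumed to vary like the other strain's. sskB was at -0.001 with TMM and at -0.001 with a coefficient of variation of 0.2. With library totals the direction turned for sskA (-0.039, adjusted p = 0.305), srrA (-0.14, adjusted p = 0.00121), sskB (-0.20, adjusted p = 5.58e-05) and mpkC (-0.11, adjusted p = 0.0631), a setting that lowers the median gene from -0.02 to -0.21. Library totals called 0 of the 7 genes at least 1.5-fold higher, and 3 of the 7 genes, 2 inputs, 5 genes of the other cascades (the deleted mpkA among them) and 2 annotated phosphorelay genes lower. With a coefficient of variation of 0.2, 1601 of 9338 genes (17.1%) were called higher and 2494 (26.7%) lower, at any fold. Then nikA (-0.33, adjusted p = 0.375), sskA (0.16, adjusted p = 0.693) and sakA (0.65, adjusted p = 0.0569) were not called, and 1 of the 7 genes was higher, by at least 1.5-fold, and 0 lower. That setting called 0 inputs, 1 downstream gene, 0 annotated phosphorelay genes and, of the other cascades, only the deleted mpkA lower. It called 0 genes of the other cascades higher. Without deletion library b, 2 annotated phosphorelay genes were lower, and 1 without any other library. No paired analysis was possible because the recovered libraries carry no replicate number. The planned comparison by protein length was not run. Counting error was at most 3.28% per library for the 7 genes.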

Other observations

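Genes that the annotation text ties to osmotic stress, 18 beside the 7 genes and 3 of them inputs already described, went both ways. Of these 18, 9 were higher, 6 lower and 3 without a call in the authors' deposited table, where 36.3% of all genes were higher and 35.9% lower. Their median log2 difference was 0.54, beside -0.01 over all genes tested. The 3 with the largest differences are all annotated as proteins more abundant during osmoadaptation. AN1503 had 75.6 and 70.5 normalized reads in deletion libraries, against 440.5 and 444.7 in parental libraries (q = 6.98e-59 in the authors' deposited table). AN0656 had 373.6 and 401.5 in deletion libraries, against 2144 and 2265 in parental libraries (q = 9.63e-223 in the authors' deposited table). AN2204 went the other way, with 126.8 and 133.1 in deletion libraries and 37.4 and 29.5 in parental libraries, a 3.88-fold difference in the authors' deposited table (q = 1.32e-13). AN6982, named after its values were seen because it is the annotated phosphotyrosine phosphatase of the pathway, was 1.42-fold higher in the authors' deposited table (q = 6.55e-27).

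In RefSeq, sskA stands next to shoA. Over all genes tested in the authors' deposited table, 18.6% were called at least 1.5-fold higher. The neighbours of pbsB were higher there by factors close to its own, AN0932, a putative glutathione oxidoreductase, 1.73-fold (q = 5.17e-89) and AN0930 1.57-fold (q = 2.03e-34). Those of sakA were split, with AN1018 1.47-fold higher (q = 5.73e-16) and AN1016, for a G protein alpha subunit, at 0.731 of the parental level (q = 1.23e-16). Next to nikA, AN4480, of unknown function, was at 0.219 of the parental level (q = 4.51e-64) and AN4478 1.28-fold higher (q = 1.16e-06). Neighbours of sskA, srrA, sskB and mpkC ranged from 0.402 of the parental level (AN4669, near the floor) to 1.55-fold higher (AN3687). Whether neighbours differ together was not tested. No gene that RefSeq places on the same chromosome overlapped any of the 7 genes in the files' positions. For some genes RefSeq gave no chromosome, and of these 1 (AN5885-uORF) shared positions with nikA, 2 (AN12335 and AN12336) with srrA and 2 (AN11757 and AN12480) with pbsB. If any of them lies at the same place, reads of both genes could not be told apart without strand information.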
